A study of Mus musculus with 6 samples.

Results

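Immediate-early genes are transcribed within minutes of a stimulus from factors already present in the cell, and 10 of them were examined in bulk-seq of the mouse spinal cord: Fos, Fosb, Jun, Junb, Egr1, Arc, Npas4, Ier2, Nr4a1 and Dusp1. They were chosen by name as textbook immediate-early genes, with earlier results of these data known. They make up 10 of the 25576 genes listed above 0 in at least 1 library. Total RNA came from spinal cord of FVB mice at postnatal day 4, in 3 libraries of SMA mice (mSmn-/-, hSMN22tg/0) and 3 of control mice (mSmn+/-, hSMN22tg/0). Control mice thus lack 1 mouse Smn copy themselves, and both groups carry the human SMN2 transgene. The study's methods give bulk-seq as triplicates with n = 1 per group, so it is unclear whether the 3 libraries of a group are separate animals, and p-values then measure only the spread between these libraries, which may be technical. Values are FPKM, fragments scaled to the exonic length of a gene and to the mapped fragments of its library, which can be compared between genes. They hold no read counts, so depth in reads is unknown. The 3 values of a group are always given in the order of replicates 1 to 3. Depths relative to SMA replicate 1 were taken from the most frequent ratio among genes under 0.15 FPKM in both libraries. This assumes equal fragment counts in both libraries at that ratio. The relative depths were 1.16, 1.08 and 1.04 in control replicates 1 to 3, against 1.01 and 1.00 in SMA replicates 2 and 3.

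Smn1, the gene knocked out in this model, stood at 10.4, 8.64 and 11.9 FPKM across the control libraries and 8.48, 9.30 and 11.1 FPKM across the SMA libraries. Values of both groups overlapped (p = 0.6 in an exact two-sided permutation test), so gene-level FPKM leaves the genotype labels unchecked, and every direction given here rests on those labels. Markers of spinal cord cells were present in each library: the neuronal gene Stmn2 lay between 235 and 468 FPKM, the astrocyte gene Gfap between 117 and 167 FPKM and the myelin gene Mbp between 375 and 695 FPKM. Control replicate 2 stood apart from the other libraries. The summed FPKM of 10 hepatocyte markers was 26774 there and between 43.5 and 93.3 in the other 5 libraries, with Alb, the serum albumin gene, at 15895 FPKM. Values without control replicate 2 are therefore given beside many of those from all 6 libraries. On log2(FPKM + 1), the log2 fold change of Smn1 was -0.09 with all 6 libraries and -0.20 without control replicate 2.

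In neurons, calcium entry through synaptic receptors and voltage-gated channels activates kinases that act on CREB, with its CRTC coactivators, and on SRF with its ELK partners, and these factors start immediate-early transcription. The products are mostly transcription factors, together with a synaptic protein (Arc) and a phosphatase that switches off MAP kinases (Dusp1). Npas4 responds to calcium entry in neurons more selectively than the others, which growth factors and stress also induce in many cell types. In whole tissue, fewer cells of a type and less RNA per cell cannot be told apart.

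The sequences before the start sites show what these promoters share and where they differ. RefSeq start sites (GRCm38.p6) were matched by symbol for 7 of the 10 members, namely Fos, Fosb, Jun, Junb, Npas4, Nr4a1 and Dusp1, and were not matched for Egr1, Arc and Ier2. The letters TGACG, the core of the cAMP response element, were searched on both strands of the 250 bases before each start. They occurred in 6 of the 7 promoters, all but that of Jun, while 17.8% of 32851 RefSeq promoters of the same length hold them. In 4 of the 7, those of Fos, Nr4a1, Dusp1 and Npas4, they occurred at least 2 times, against 3.9% of all promoters. The promoters of Fos, Nr4a1 and Jun are shown because they hold 2, 4 and 0 such matches. They lie at chr12:85473640-85473889 on the plus strand, chr15:101266596-101266845 on the plus strand and chr4:95052223-95052472 on the minus strand, and are written 5′ to 3′ up to the base before the start. Capitals mark TGACG, its reverse complement CGTCA and, in Fos, the TATA box letters TATAAA.
Fos: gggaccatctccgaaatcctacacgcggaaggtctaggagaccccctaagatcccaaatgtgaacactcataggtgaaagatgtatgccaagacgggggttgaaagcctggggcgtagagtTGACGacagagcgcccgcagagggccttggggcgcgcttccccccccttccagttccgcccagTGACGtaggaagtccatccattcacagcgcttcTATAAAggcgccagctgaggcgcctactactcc
Nr4a1: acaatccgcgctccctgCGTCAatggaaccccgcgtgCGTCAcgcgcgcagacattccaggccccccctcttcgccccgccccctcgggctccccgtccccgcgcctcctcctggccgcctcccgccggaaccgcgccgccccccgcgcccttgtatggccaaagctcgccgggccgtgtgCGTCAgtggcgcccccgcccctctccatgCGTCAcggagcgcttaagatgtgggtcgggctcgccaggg
Jun: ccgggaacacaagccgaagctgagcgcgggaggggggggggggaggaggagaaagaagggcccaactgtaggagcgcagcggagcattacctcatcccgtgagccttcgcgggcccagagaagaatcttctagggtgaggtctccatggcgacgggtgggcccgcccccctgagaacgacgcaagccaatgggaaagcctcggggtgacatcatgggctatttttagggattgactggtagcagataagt

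The matches in Fos begin 129 and 66 bases before the start, and those in Nr4a1 begin 233, 213, 69 and 40 bases before it. In Npas4 they begin 179 and 169 bases before the RefSeq start, in the window chr19:4989972-4990221 on the minus strand. GENCODE M21 places all 250 bases of that window in an exon and starts Npas4 at 4990316, so the window lies within the annotated gene. GENCODE M21 also places 47 bases of the Dusp1 window and 6 bases of the Fosb window in exons. These 3 windows are thus not wholly upstream of all annotated starts. GENCODE M21 starts Dusp1 at 26562128 on the minus strand of chromosome 17. The whole Dusp1 window, chr17:26508473-26508722, thus lies within the annotated gene, downstream of an annotated start. The Nr4a1 window holds 0 exonic bases, but GENCODE M21 starts that gene at 101254269 on chromosome 15. The Nr4a1 window thus lies within the annotated gene, downstream of an annotated start. The full palindrome TGACGTCA, which contains TGACG, was found in 1 of the 7, Dusp1 (1.55% of all promoters), and TATAAA, read on the gene's strand alone, in Fos alone of the 7 (7.59% of all). The EGR motif letters GCGGGGGCG were found in Fosb and Nr4a1 (2.57% of all), while the AP-1 letters TGACTCA (4.46% of all) and the CArG box (1.47% of all) were in 0 of these 7 windows. GC content was 58.4% in Fos, 61.2% in Jun, 74.4% in Nr4a1 and 68.8% in Npas4, against a median of 52.4% over all promoters, and TGACG holds a CG pair. The matches are descriptions of letters in these windows. Bases farther upstream were not searched, and sites that differ from the searched letters were not counted.

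All 10 members had FPKM above 0 in at least 1 library, and 9 reached the mean of 0.5 FPKM required for testing, Fosb being below it. By mean FPKM over the 6 libraries the order was Jun (17.3), Ier2 (5.10), Dusp1 (3.86), Nr4a1 (2.99), Egr1 (2.72), Junb (2.65), Fos (2.11), Arc (1.85), Npas4 (1.11) and Fosb (0.0467). The libraries of Jun lay above those of Ier2 and the libraries of Npas4 above those of Fosb, while every other pair of neighbours in this order overlapped. Among the 17088 genes tested, whose median of mean FPKM was 7.53, Jun stood at percentile 73.8 of mean FPKM and the other 8 tested members between percentile 11.5 (Npas4) and percentile 40.3 (Ier2).

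**Figure D1:**
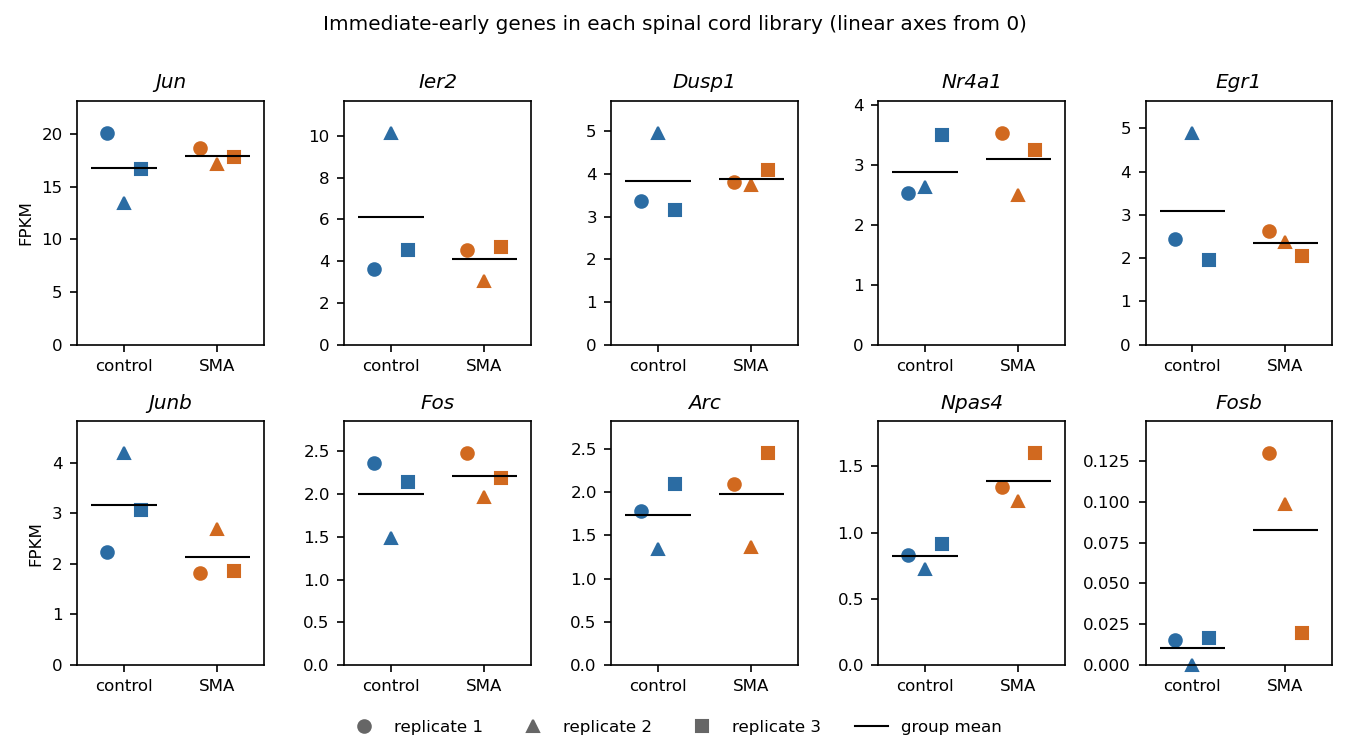
FPKM of each of the 10 members (linear axes from 0, 1 panel per gene), with control libraries in blue and SMA libraries in orange, symbols for the replicate number and a line at each group mean. Npas4 lies higher in the 3 SMA libraries (1.24 to 1.60 FPKM) than in the 3 control libraries (0.723 to 0.915 FPKM), and control replicate 2 (triangle) is the highest library for Ier2, Egr1, Junb and Dusp1.

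SMA and control were compared on log2(FPKM + 1) with limma, a scale that understates the fold change of genes with low FPKM. Among all genes tested, 0 (0%) passed an adjusted p of 0.05 (limma with Benjamini-Hochberg adjustment, smallest adjusted p = 0.683), and 990 genes (5.79%) had an unadjusted p under 0.05. Of the 9 tested members, 1 (Npas4) was higher in SMA at an unadjusted p under 0.05, where 3.40% of all genes tested were, and 0 were lower, where 2.39% were. This is a count of 1 gene. The split over all genes, 581 higher and 409 lower, moved to 528 and 565 under median ratio scaling, to 338 and 386 under rescaling to the same total and to 662 and 335 under quantile normalization. The members' median log2 fold change was 0.08, with 6 positive and 3 negative values between -0.40 and 0.39, beside a median of 0.04 over all genes tested. Without control replicate 2 both medians were 0.00.

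**Figure D2:**
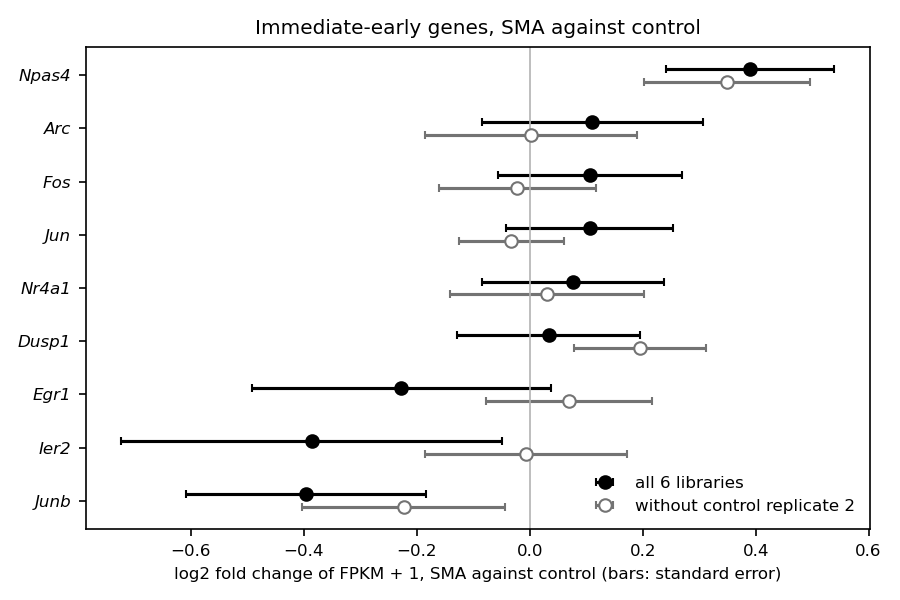
Log2 fold change of SMA against control on the log2(FPKM + 1) scale for the 9 tested members, with all 6 libraries and without control replicate 2. Bars are standard errors from limma, and the value of Npas4 is 0.39 with all libraries and 0.35 without control replicate 2, while that of Ier2 goes from -0.39 to -0.01.

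Npas4, a bHLH-PAS transcription factor that regulates inhibitory synapse number in active neurons, is listed on chromosome 19 from 4984355 to 4989971. Npas4 stood at 0.833, 0.723 and 0.915 FPKM across the control libraries and 1.34, 1.24 and 1.60 FPKM across the SMA libraries. Every SMA library was above every control library. For Npas4 the log2 fold change of 0.39 had a standard error of 0.149, with an unadjusted p of 0.0362 and an adjusted p of 0.683 from limma, and p = 0.1 in the exact two-sided permutation test, the smallest it can give with 3 libraries against 3. Among the 9 tested members 1 had groups without overlap, with SMA above, and 0 had SMA below, while of all genes tested 17.0% had groups without overlap, 10.3% with SMA above and 6.67% with SMA below. Without control replicate 2 the log2 fold change of Npas4 was 0.35 (standard error 0.147, limma adjusted p = 0.466) and its unadjusted p was again under 0.05. It was then again the 1 of 9 tested members at that threshold, where 10.5% of the 16574 genes tested were, 5.27% higher and 5.20% lower in SMA, and 0 members passed an adjusted p of 0.05, where 2 genes (0.0121%) did. The unadjusted p of Npas4 was under 0.05 in 8 of 15 alternative settings and its adjusted p lay between 0.447 and 0.907, with a log2 fold change above 0 in all 15 that reached 0.69 with a pseudocount of 0.1 FPKM. The unadjusted p was not under 0.05 when any 1 of the SMA libraries or control replicate 1 was left out.

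Neuronal transcripts differed between these libraries as well. The summed FPKM of 8 neuron markers, of which Stmn2 was the most abundant and none was at 0, was 1253, 653 and 1165 across the control libraries and 1225, 1308 and 1308 across the SMA libraries. Control replicate 2 was the lowest and the other 5 libraries were close together. The neuron markers also leaned towards SMA, with 8 of 8 log2 fold changes above 0, a median of 0.39 and 5 of 8 with every SMA library above every control library (10.3% of all genes tested), while 0 of 8 had an unadjusted limma p under 0.05. Without control replicate 2 their median was 0.12, and 3 (Syt1, Rbfox3 and Slc32a1, named after their values were seen) were higher in SMA at an unadjusted limma p under 0.05, where 5.27% of all genes tested were. Of the 5 motor neuron markers tested 2 had log2 fold changes above 0 and 3 below, with a median of -0.01, and of -0.20 without control replicate 2. Slc5a7 (named after its value was seen) was then lower at that threshold, as were 5.20% of all genes tested. The part of the neuron markers in the Npas4 result beyond the ratio given next was not tested. Per 1000 FPKM of these markers, Npas4 was at 0.665, 1.11 and 0.785 FPKM across the control libraries and 1.10, 0.945 and 1.22 FPKM across the SMA libraries. On this ratio, which was chosen after the data were seen, the groups overlapped through control replicate 2, and the SMA libraries were above control replicates 1 and 3. The log2 ratio of the group means was 0.76 for Npas4 FPKM and 0.35 per neuron marker FPKM. It was 0.67 for Npas4 FPKM and 0.58 per neuron marker FPKM without control replicate 2.

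**Figure D3:**
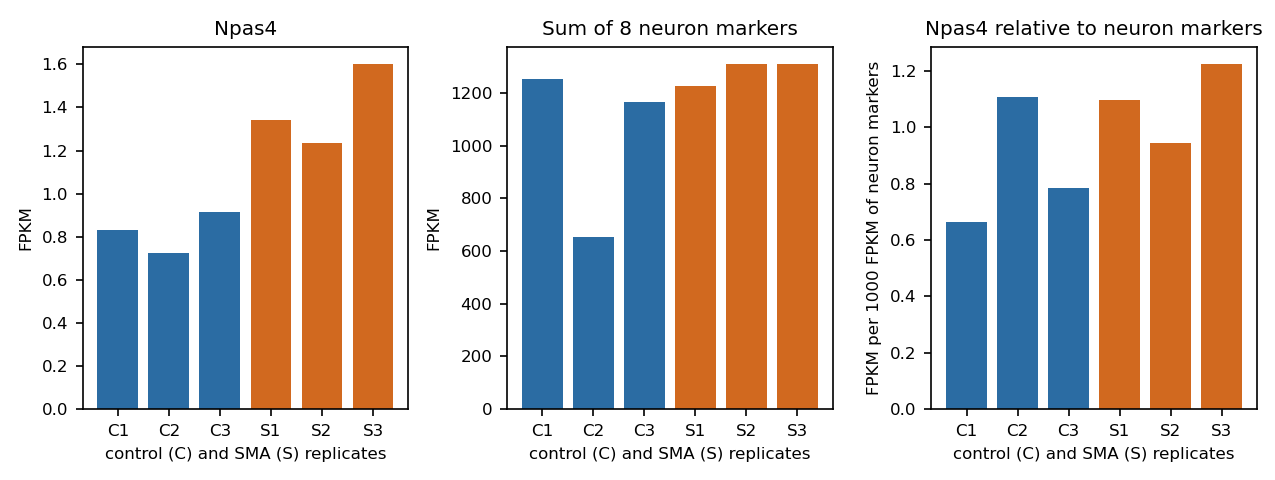
Bars from 0 for each control (C, blue) and SMA (S, orange) library show Npas4 FPKM, the summed FPKM of 8 neuron markers, and Npas4 per 1000 FPKM of these markers. The marker sum is lowest in control replicate 2 (653 FPKM), and the ratio of that library (1.11) lies among the SMA libraries (0.945 to 1.22).

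Fosb encodes a FOS family partner of JUN proteins and lies on chromosome 7 from 19302696 to 19310051. It stood at 0.0151, 0 and 0.0164 FPKM across the control libraries and 0.130, 0.0989 and 0.0198 FPKM across the SMA libraries. SMA replicates 1 and 2 stood well above the others, and SMA replicate 3 was just above control replicate 3, so that the groups did not overlap (p = 0.1 in the exact two-sided permutation test). Without the filter on low FPKM the log2 fold change was 0.10 (limma adjusted p = 0.737). Depth in reads is unknown, so the number of fragments behind these low values cannot be given.

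Fos, which pairs with JUN proteins to form AP-1, stood at 2.36, 1.49 and 2.15 FPKM across the control libraries and 2.48, 1.96 and 2.19 FPKM across the SMA libraries. Its groups overlapped, with control replicate 2 the lowest library (log2 fold change 0.11, standard error 0.162, limma adjusted p = 0.797), and without that library the value was -0.02. Jun, the most abundant AP-1 subunit among the members, stood at 20.1, 13.5 and 16.6 FPKM across the control libraries and 18.6, 17.1 and 17.8 FPKM across the SMA libraries. It overlapped between groups in the same way, again with control replicate 2 lowest (log2 fold change 0.11, standard error 0.148, limma adjusted p = 0.783, and -0.03 without control replicate 2). The files give Jun a span shared with Junos and Gm28096, so reads of these overlapping genes may be divided between them. Junb, a JUN family member that can restrain JUN activity, stood at 2.23, 4.20 and 3.07 FPKM across the control libraries and 1.83, 2.70 and 1.86 FPKM across the SMA libraries. Control replicates 2 and 3 were the highest libraries and SMA replicates 1 and 3 the lowest, with overlap through control replicate 1 and SMA replicate 2. The log2 fold change of Junb was -0.40 (standard error 0.212, limma adjusted p = 0.683) and -0.22 without control replicate 2. Its unadjusted limma p was under 0.05 in 1 of 15 alternatives, without control replicate 1, where the log2 fold change was -0.57.

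Egr1, a zinc-finger factor that binds GC-rich promoters, stood at 2.43, 4.90 and 1.95 FPKM across the control libraries and 2.62, 2.38 and 2.05 FPKM across the SMA libraries. Control replicate 2 was high and the other 5 libraries overlapped (log2 fold change -0.23, standard error 0.265, limma adjusted p = 0.740, and 0.07 without control replicate 2). Nr4a1, an orphan nuclear receptor, stood at 2.53, 2.63 and 3.51 FPKM across the control libraries and 3.54, 2.51 and 3.25 FPKM across the SMA libraries. Each group held both low and high libraries (log2 fold change 0.08, standard error 0.161, limma adjusted p = 0.856, and 0.03 without control replicate 2).

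Arc, whose protein promotes removal of AMPA receptors from synapses, stood at 1.78, 1.34 and 2.09 FPKM across the control libraries and 2.10, 1.37 and 2.45 FPKM across the SMA libraries. The groups overlapped, with control replicate 2 and SMA replicate 2 both low (log2 fold change 0.11, standard error 0.195, limma adjusted p = 0.828, and 0.00 without control replicate 2). Ier2, an early response gene of serum-stimulated cells, stood at 3.62, 10.2 and 4.55 FPKM across the control libraries and 4.56, 3.06 and 4.67 FPKM across the SMA libraries. Control replicate 2 was above all other libraries and the remaining 5 overlapped (log2 fold change -0.39, standard error 0.337, limma adjusted p = 0.684, and -0.01 without control replicate 2). Dusp1, the MAP kinase phosphatase that ends the signal, stood at 3.36, 4.97 and 3.17 FPKM across the control libraries and 3.81, 3.75 and 4.09 FPKM across the SMA libraries. The SMA libraries lay between control replicates 1 and 3 and control replicate 2 (log2 fold change 0.03, standard error 0.162, limma adjusted p = 0.942). Without control replicate 2 the value of Dusp1 was 0.20 (limma adjusted p = 0.600).

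Control replicate 2 held the highest value of 4 members (Ier2, Egr1, Junb and Dusp1) and the lowest of 5 (Fos, Fosb, Jun, Arc and Npas4). Relative to the mean of the other 5 libraries it was at 2.48 for Ier2, 2.14 for Egr1, 1.80 for Junb and 1.37 for Dusp1, and at 0.857 for Nr4a1, 0.745 for Jun, 0.684 for Arc, 0.667 for Fos and 0.610 for Npas4, beside a median of 0.886 over all genes tested. The same ratio of summed marker FPKM was 425 for hepatocytes (10 of 10 markers above 0, Alb the most abundant), 56.9 for neutrophils (7 of 7, S100a8) and 12.8 for erythroid cells (7 markers, Hbb-bs, with Ahsp not analysed here). It was 0.521 for neurons and 0.595 for motor neurons (Prph), and 0.832 for astrocytes (Gfap), 0.906 for the oligodendrocyte lineage (Mbp), 1.13 for skeletal muscle (Acta1), 1.40 for microglia (P2ry12), 1.40 for endothelial cells (Cldn5) and 1.43 for fibroblasts (Col1a2). The microglia list was split, with Tyrobp (2.35), C1qa (2.02) and Csf1r (1.55) above 1 and P2ry12 (0.802), Cx3cr1 (0.909) and Tmem119 (0.778) below it, and the most abundant endothelial and fibroblast genes, Cldn5 (1.05) and Col1a2 (0.958), were near 1. The part of these cell types in the members' values was not tested.

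**Figure D4:**
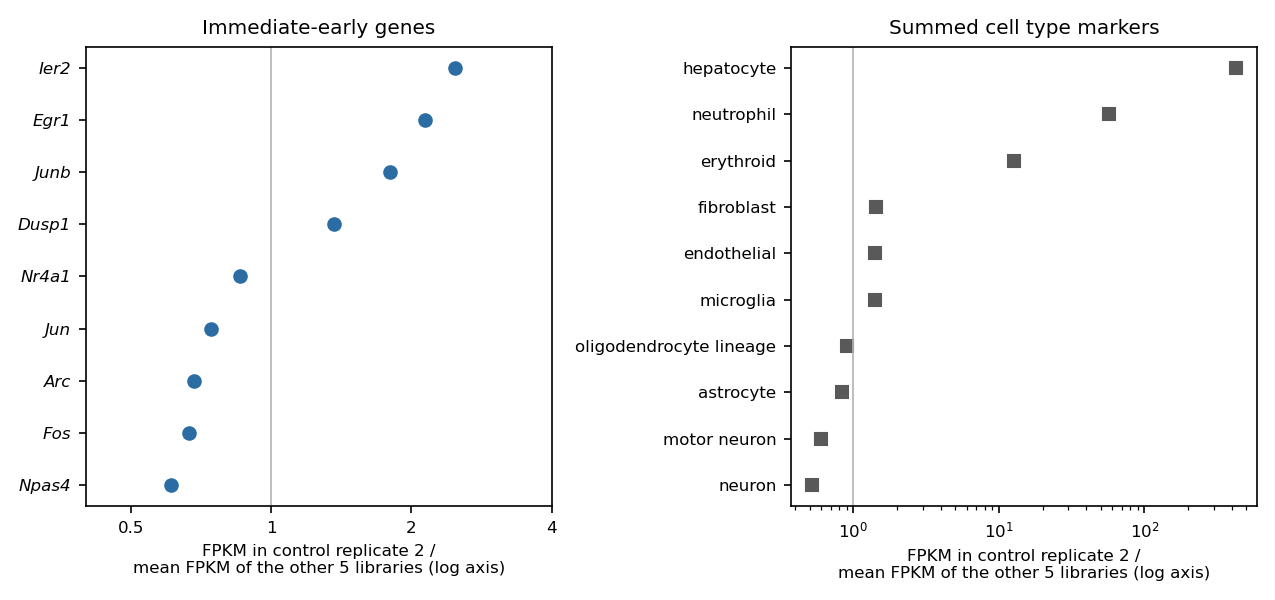
FPKM in control replicate 2 divided by the mean FPKM of the other 5 libraries (log axes, line at 1), for the 9 tested members and for the summed FPKM of the marker lists of 10 cell types, with skeletal muscle not drawn. Ier2, Egr1, Junb and Dusp1 lie above 1, as do the hepatocyte (425), neutrophil (56.9) and erythroid (12.8) lists, while Npas4 (0.610) and the neuron list (0.521) are the lowest of their panels.

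Over the 5 libraries other than control replicate 2, the ratio of the highest to the lowest library was 1.21 for Jun, 1.26 for Fos, 1.29 for Dusp1, 1.34 for Egr1, 1.41 for Nr4a1, 1.52 for Ier2, 1.68 for Junb, 1.79 for Arc and 1.92 for Npas4. This range runs over both groups, and for Npas4 it includes the distance between groups that did not overlap. The median of that ratio was 1.32 over genes tested and above 0 in each of these libraries and 1.61 over the 5129 genes averaging 1 to 5 FPKM.

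The summed FPKM of 6 endothelial markers was 52.3, 60.1 and 54.1 across the control libraries and 42.3, 32.8 and 33.2 across the SMA libraries. Every SMA library was below every control library, and 4 of the 6 markers (Cldn5 and, named after their values were seen, Pecam1, Kdr and Tek) were lower at an unadjusted p under 0.05 from limma, with 0 at an adjusted p under 0.05, where 2.39% of all genes tested were lower at an unadjusted p under 0.05. These 4 were lower at that unadjusted threshold without control replicate 2 as well, where 5.20% of all genes tested were. The list median was -0.56 with all 6 libraries and -0.46 without control replicate 2. The summed FPKM of 5 fibroblast markers was 161, 168 and 145 across the control libraries and 176, 74.8 and 33.7 across the SMA libraries, with SMA replicate 3 lowest. The log2 fold changes of 5 of 5 were below 0, with a median of -1.09 (-0.87 without control replicate 2), and 1, Lum, named after its value was seen, was lower at an unadjusted limma p under 0.05, which it was not without control replicate 2. The part of these vascular and connective tissue cells in the members' values was not tested.

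The relatives of the members were described from lists of the same pathway. Their counts at an unadjusted p under 0.05 stand beside 3.40% higher and 2.39% lower of all genes tested, and beside 5.27% and 5.20% without control replicate 2. Of 9 other AP-1 family genes above 0 in at least 1 library 6 were tested and 0 had an unadjusted limma p under 0.05, with a median log2 fold change of 0.08 (0.18 without control replicate 2). The most abundant were the small MAF gene Mafg, between 20.8 and 27.8 FPKM, Jund, between 14.6 and 18.8 FPKM, and Mafk, between 2.83 and 5.21 FPKM. Fosl1 was not analysed here. Of 7 genes of the EGR and NR4A families and the EGR co-repressors 5 were tested and 0 had an unadjusted limma p under 0.05, with a median of -0.26 (-0.15 without control replicate 2). Here the co-repressor Nab1 was between 5.84 and 11.0 FPKM, with control replicate 2 highest, Nr4a2 between 2.17 and 4.35 FPKM and Nr4a3 between 2.10 and 4.02 FPKM.

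Among 36 other early response genes, all tested, 1 was higher in SMA and 0 were lower at an unadjusted p under 0.05, and the median log2 fold change was -0.05 (-0.03 without control replicate 2, with 2 higher, Gadd45g and Cebpb, and 0 lower). The 3 most abundant were Mcl1 (27.7 to 37.6 FPKM), Errfi1 (23.6 to 41.8 FPKM) and Sgk1 (16.2 to 19.3 FPKM), each with its highest value in control replicate 2. Gadd45g, a stress response gene named after its value was seen, stood at 4.64, 4.27 and 3.60 FPKM across the control libraries and 5.68, 6.76 and 5.34 FPKM across the SMA libraries. Its groups did not overlap (log2 fold change 0.42, standard error 0.133, limma adjusted p = 0.683, and 0.44 without control replicate 2). In this list 2 genes had every SMA library above every control library and 1 below, beside 10.3% and 6.67% of all genes tested. Cebpb, a bZIP factor also named after its value was seen, stood at 0.454, 2.70 and 0.679 FPKM across the control libraries and 2.20, 1.94 and 2.42 FPKM across the SMA libraries. Control replicate 2 was the highest library of all, and the other 2 control libraries were below every SMA library. The log2 fold change of Cebpb was 0.61 (limma adjusted p = 0.683) and, without control replicate 2, 1.03 (limma adjusted p = 0.176, the lowest over the 15 alternatives, which reached 0.907).

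Effector genes that neuronal activity induces gave 0 of 10 at an unadjusted limma p under 0.05, with a median log2 fold change of 0.09 (-0.05 without control replicate 2). Their most abundant members were the secretory granule gene Scg2 (31.3 to 59.3 FPKM), Vgf (27.6 to 50.6 FPKM) and Nrn1 (34.1 to 52.5 FPKM), with Scg2 and Vgf lowest and Nrn1 highest in control replicate 2. Among 14 other dual-specificity phosphatase and Sprouty feedback genes, 1 was higher in SMA and 0 were lower at an unadjusted limma p under 0.05, and the median was 0.03 (-0.12 without control replicate 2). Dusp8 was the most abundant, at 41.6, 25.5 and 39.8 FPKM across the control libraries and 49.8, 52.5 and 43.6 FPKM across the SMA libraries, without overlap (log2 fold change 0.46, limma adjusted p = 0.683, and 0.25 without control replicate 2). Spred1 (29.9 to 41.6 FPKM) and Spred2 (13.3 to 19.6 FPKM), inhibitors of RAS signalling, overlapped between groups. Dusp2, the 1 gene of this list with an unadjusted p under 0.05, was at 2.35, 1.85 and 2.60 FPKM across the control libraries and 2.93, 3.57 and 3.09 FPKM across the SMA libraries. It was named after its value was seen (log2 fold change 0.37, standard error 0.141, limma adjusted p = 0.683). Without control replicate 2 its log2 fold change was 0.27 and its unadjusted p was no longer under 0.05, while Dusp8 was higher and Dusp6 lower in SMA at that threshold. Every SMA library was above every control library for 2 genes of this list, Dusp8 and Dusp2, and below for 3, Dusp5, Dusp6 and Dusp16, beside 10.3% above and 6.67% below over all genes tested. The log2 fold changes of these 3 were -0.19, -0.32 and -0.34, and -0.13, -0.34 and -0.16 without control replicate 2, which held the highest Dusp16 value (5.85 FPKM). These 3 were named after their values were seen.

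Upstream of the members, 33 transcription factors, coactivators and kinases were tested, of which 2 were higher in SMA and 0 lower at an unadjusted limma p under 0.05, where 3.40% of all genes tested were higher and 2.39% lower. The median log2 fold change was 0.10, with 27 positive and 6 negative values, and 0.05 without control replicate 2, where 4 were higher (Crtc1, Mapk10, Crebbp and Map2k2) and 0 lower at that threshold, against 5.27% and 5.20% of all genes. Groups did not overlap for 7 of the 33, 6 with SMA above and 1, Elk4, with SMA below, beside 17.0% of all genes tested (10.3% above and 6.67% below). Among the most abundant, Camk2b (65.3 to 110.5 FPKM) and Mapk9 (61.4 to 96.4 FPKM) had their lowest value in control replicate 2. Crebbp, Map2k2, Elk4 and the 2 higher genes were named after their values were seen. Crtc1, a CREB coactivator enriched in neurons, stood at 15.9, 12.9 and 16.8 FPKM across the control libraries and 20.6, 19.9 and 21.6 FPKM across the SMA libraries. Mapk10, the neuronal JNK kinase that phosphorylates JUN, stood at 55.5, 40.5 and 55.0 FPKM across the control libraries and 72.3, 69.8 and 71.1 FPKM across the SMA libraries. Both had every SMA library above every control library, as did 5 of the 8 neuron markers, whose part in these values was not tested. Their log2 fold changes were 0.43 for Crtc1 (standard error 0.118) and 0.50 for Mapk10 (standard error 0.140), both with an adjusted p of 0.683 from limma. Without control replicate 2 they were 0.32 for Crtc1 (limma adjusted p = 0.291) and 0.36 for Mapk10 (limma adjusted p = 0.176).

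Of 9 heat shock genes, which respond to protein damage, 1 was higher in SMA and 0 lower at an unadjusted limma p under 0.05, with a median log2 fold change of 0.15 (0.01 without control replicate 2, with 2 higher, Hspb1 and, named after its value was seen, Bag3, and 0 lower). Hspa8 (327 to 439 FPKM), Hsp90aa1 (135 to 209 FPKM) and Dnaja1 (50.6 to 63.2 FPKM) were the most abundant and overlapped between groups, with control replicate 2 lowest. Hspb1, a small heat shock protein gene named after its value was seen, stood at 2.40, 2.08 and 3.46 FPKM across the control libraries and 3.74, 4.49 and 4.94 FPKM across the SMA libraries. Its groups did not overlap (log2 fold change 0.58, standard error 0.176, limma adjusted p = 0.683, and 0.46 without control replicate 2). In this list 2 genes had every SMA library above every control library and 0 below, beside 10.3% and 6.67% of all genes tested.

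**Figure D5:**
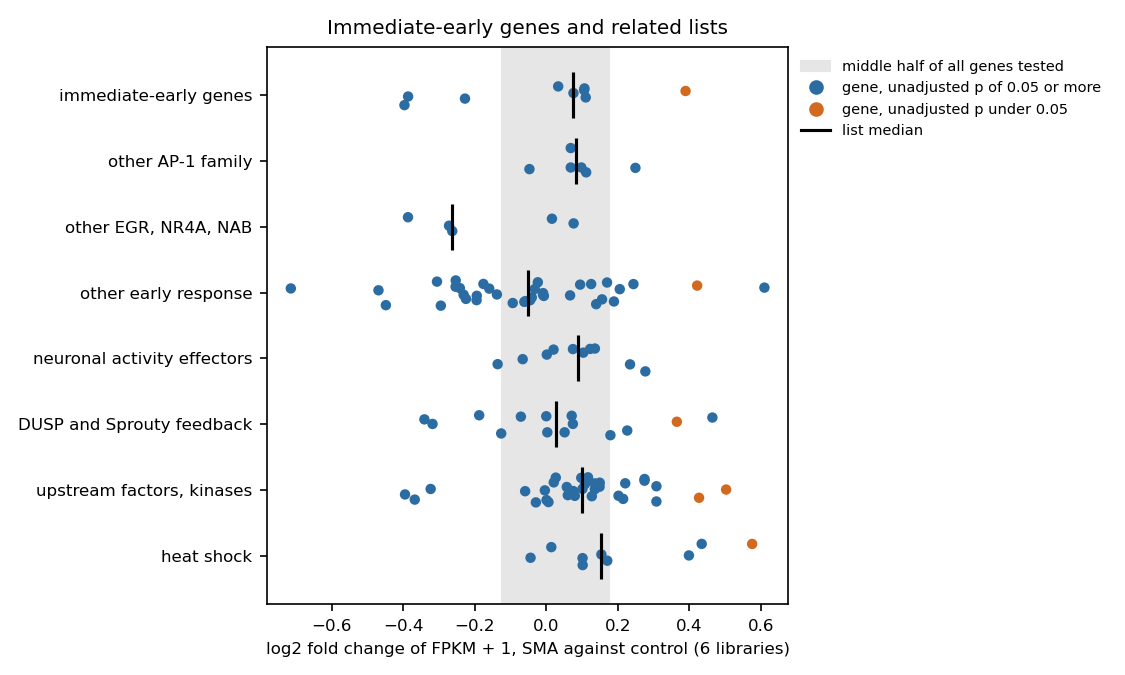
Log2 fold change of SMA against control on the log2(FPKM + 1) scale for each tested gene (points) of the members and of the 7 related lists, orange where the unadjusted limma p is under 0.05, with a line at each list median and shading over the central part of all genes tested. List medians lie between -0.26 (EGR and NR4A families) and 0.15 (heat shock genes), and each list has genes on both sides of 0.

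The members are short genes with few exons. In GENCODE M21, taking the transcript with the largest exonic length, their median transcript span was 3435 bases (1522 to 20527), against 21005 bases over 14363 protein-coding genes tested. A span under 10000 bases was found for 9 of the 10 members, all but Nr4a1, and for 30.2% of these protein-coding genes. Their median exon number was 3 (1 to 8), against 8, and Jun, Junb and Ier2 have 1 exon. Exonic length differed less, with medians of 2804 bases for the members and 3439 bases for these protein-coding genes.

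The profile most like the members' was sought as the smallest root mean square distance over the 6 libraries to the members' median profile, among 15408 other genes averaging at least 1 FPKM. Each profile was log2(FPKM + 1) less the gene's own mean, a scale on which genes with low FPKM vary little. The nearest were Ubald1 (0.0203), Adamts17 (0.0259), the gene with identifier ENSMUSG00000108912 (0.0275), Usp10 (0.0279), Nop16 (0.0314) and D2Wsu81e (0.0317). The tested members lay between 0.117 (Nr4a1) and 0.482 (Ier2) from their own median profile. The 6 genes were picked as the nearest and the members were not, so these distances are descriptions.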

How the data were processed

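Bulk-seq of 6 spinal cord libraries (ribosomal RNA-depleted, strand-specific) was analysed. The authors aligned reads with HISAT2 and deposited FPKM from Cufflinks for each library. The submitters' processing notes name build mm10, and versions are not given in the sources used here. Each file lists only genes above 0, and absent genes were set to 0. Groups were taken from the sample labels.

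Genes averaging at least 0.5 FPKM were compared on log2(FPKM + 1) with lmFit and eBayes (trend) of limma 3.58.1 in R 4.3.3, without covariates, and two-sided p-values had Benjamini-Hochberg adjustment over the 17088 genes tested. Single members were also compared by an exact permutation test over the 6 libraries. The procedure was tested on simulated data, with the same noise for every gene and no outlying library, unlike the data here. Lists were described by counts and medians, without set tests. The members and lists were chosen with earlier results of these data known.

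Named genes were Smn1, the members, up to 3 genes per list with the highest mean FPKM, genes passing an adjusted p of 0.05 or an unadjusted p under 0.05 with a fold difference over 2, the top gene per marker list and the 6 nearest profiles. Others are marked as named after their values were seen. A gene that this rule selects is not reported here.

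Alternatives were a pseudocount of 0.1, no filter or a minimum mean of 1 FPKM, median ratio scaling, quantile normalization, rescaling to the same total, robust eBayes, arrayWeights, the replicate number as a block and leaving out each library. Npas4 relative to neuron markers, and ratios of its group means without control replicate 2, were added after seeing the data. Structure was read from GENCODE M21 and promoters from RefSeq (GRCm38.p6).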

Additional observations from a re-analysis of the deposited data

How the results depend on the processing

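Over the 15 alternatives, the log2 fold changes of Npas4 (0.33 to 0.69), Junb (-0.57 to -0.22) and Ier2 (-0.64 to -0.01) kept their sign. The log2 fold changes of the other tested members changed sign at values near 0. With arrayWeights they were 0.013 for Egr1, -0.015 for Fos and -0.019 for Jun, and Dusp1 was at -0.016 under median ratio scaling. With 1 library left out, Egr1 ranged from -0.43 to 0.069 and Fos from -0.022 to 0.20, Jun from -0.033 to 0.24, Arc from -0.0063 to 0.27, Nr4a1 from -0.0020 to 0.19 and Dusp1 from -0.064 to 0.20. The changed signs came without control replicate 2 for Egr1, Fos and Jun, without SMA replicate 3 for Arc, without SMA replicate 1 for Nr4a1 and without control replicate 1 (-0.031) or 3 for Dusp1. The cause was not tested.

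The 1 member with an unadjusted limma p under 0.05 became 0 with a minimum mean of 1 FPKM, with arrayWeights and with the replicate block, and the count ranged from 0 to 1 when libraries were left out. It was 0 without SMA replicate 1, 2 or 3. Without control replicate 1 the 1 member was Junb, and Npas4 was not under 0.05. The members' median log2 fold change ranged from 0.00 to 0.13. Genes at an unadjusted p under 0.05 numbered 990, 659 with the replicate block and 339 (without SMA replicate 3) to 1752 (without control replicate 3) with 1 library left out. Genes called at an adjusted p under 0.05 ranged from 0 to 2 with 1 library left out, the 2 being Rpph1 and Snora74a without control replicate 2, named after their values were seen. The log2 ratio of mean Npas4 FPKM, 0.76, was 0.35 relative to neuron markers. Without control replicate 2 these values were 0.67 and 0.58.

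Same-numbered libraries had correlations of their deviations from the group means of -0.037, 0.0161 and 0.0766 for replicates 1 to 3. Control replicates 1 to 3 matched SMA replicates 3, 1 and 3 best. These values cannot decide whether the replicate numbers pair the libraries, because control replicate 2 enters the control mean and so every control deviation. That library correlated at 0.836 to 0.849 with the others, against at least 0.983 among the other 5. Depth in reads is unknown, so no counting error can be given.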
